A study of Homo sapiens with 6 samples.

Results

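The aldo-keto reductases are a family of enzymes that use NADPH to reduce aldehydes and ketones to alcohols. The members were set by symbol (AKR1A1, AKR1B1, AKR1B10, AKR1C1, AKR1C2, AKR1C3, AKR7A2 and AKR7A3) and found in the table of the whole series by Ensembl identifier. Of the 8 members, 7 had a row among the 27134 genes of the table, and AKR1C3 was not analysed here. All 7 passed the filter on low values, a mean normalised count of at least 1 over the libraries.

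RNA was sequenced from KM12, an established human colorectal cancer line, at passages 10 to 15. The CDO1 group was labelled as overexpressing CDO1, cysteine dioxygenase, which oxidises cysteine to its sulfinate, and the mock group as its control, with 3 libraries each. The labels say neither how CDO1 was introduced nor whether replicates are separate cultures or clones, so each p-value reflects variation among 3 libraries a group that could be technical only. The question put to the members was whether their transcript levels differed between these groups.

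Members of the family divide by substrate. AKR1B1, aldose reductase, turns glucose into sorbitol at the start of the polyol pathway and is known to respond to osmotic stress, and its close relative AKR1B10 reduces retinaldehyde and dietary aldehydes and is known from normal intestinal epithelium. AKR1A1 is the general aldehyde reductase, the AKR1C enzymes reduce ketosteroids and prostaglandins, and the AKR7A enzymes reduce the dialdehyde of aflatoxin, AKR7A2 also succinic semialdehyde. Several of these genes are known targets of NRF2, the transcription factor of the electrophile response, which is held back by KEAP1.

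Reads can be shared between genes whose transcripts are near copies, so the members were first compared by sequence. The coding sequences of the AKR1C pair were 98.0% identical over the alignment in the GENCODE 29 transcripts (GRCh38), those of AKR7A2 and AKR7A3 84.96%, and those of AKR1B1 and AKR1B10 76.1%. The stretches that follow show how many bases part each pair. They run 5′ to 3′ on the coding strand, and capitals mark the bases that differ within the pair. In the AKR1C pair, on chromosome 10, coding bases 301 to 480 differ at 3 of 180 positions.
AKR1C1: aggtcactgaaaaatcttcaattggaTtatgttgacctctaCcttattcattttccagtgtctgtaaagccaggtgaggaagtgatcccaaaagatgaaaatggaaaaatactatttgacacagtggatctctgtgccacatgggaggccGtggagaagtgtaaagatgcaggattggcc
AKR1C2: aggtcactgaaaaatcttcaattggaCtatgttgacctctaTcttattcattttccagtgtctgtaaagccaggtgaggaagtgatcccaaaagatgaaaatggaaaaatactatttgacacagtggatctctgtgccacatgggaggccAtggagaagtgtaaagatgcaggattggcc
In the AKR7A pair, on chromosome 1, coding bases 301 to 480 of AKR7A2 and 217 to 396 of AKR7A3 differ at 29 of 180 positions.
AKR7A2: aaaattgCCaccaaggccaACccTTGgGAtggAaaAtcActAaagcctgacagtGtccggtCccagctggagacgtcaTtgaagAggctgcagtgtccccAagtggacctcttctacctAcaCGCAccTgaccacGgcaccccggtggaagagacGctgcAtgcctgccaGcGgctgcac
AKR7A3: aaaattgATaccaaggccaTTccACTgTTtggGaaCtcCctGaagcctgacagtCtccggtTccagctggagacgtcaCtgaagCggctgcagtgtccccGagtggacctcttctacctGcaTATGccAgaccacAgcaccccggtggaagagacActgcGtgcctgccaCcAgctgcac
In the AKR1B pair, on chromosome 7, coding bases 301 to 477 differ at 45 of 177 positions.
AKR1B1: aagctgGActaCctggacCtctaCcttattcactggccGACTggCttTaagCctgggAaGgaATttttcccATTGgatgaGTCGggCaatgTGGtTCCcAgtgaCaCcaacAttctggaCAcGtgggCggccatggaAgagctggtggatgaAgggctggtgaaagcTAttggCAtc
AKR1B10: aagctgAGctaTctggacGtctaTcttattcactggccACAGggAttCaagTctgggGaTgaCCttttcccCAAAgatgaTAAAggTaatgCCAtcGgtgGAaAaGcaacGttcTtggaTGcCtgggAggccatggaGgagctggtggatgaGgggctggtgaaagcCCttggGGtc

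Neither the read length nor the rule for reads that match several genes is stated in the sources used here, so windows of 50 and 100 bases of each transcript were compared as a description. No window of 100 bases of the AKR1A1 or AKR1B1 transcript occurred in a transcript of another gene, and in AKR7A2 the share was 0.396%. It was 12.2% in AKR7A3, all of them shared with AKR7L, a neighbour annotated as a polymorphic pseudogene. The share was 2.01% in AKR1B10, with AKR1B15 and the pseudogene AKR1B10P1, 17.4% in AKR1C1 and 32.9% in AKR1C2. With windows of 50 bases the shares were 28.7% in AKR1C1, 52.2% in AKR1C2, 23.3% in AKR7A3, 17.7% in AKR1B10, 7.997% in AKR7A2 and 4.78% in AKR1B1, and again 0 in AKR1A1. The counts of the AKR1C pair, AKR7A3 and AKR1B10 are uncertain for this reason, by an amount that the shares do not give. Each share is taken over a whole reference transcript, which for AKR1C1 has 6705 bases, of which 969 are coding. No exon of a member overlapped another gene of GENCODE 29 on either strand.

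The labels were checked on CDO1 itself. Its normalised count, a read count divided by the library's size factor, was 2483.91, 2336.28 and 2332.78 in the CDO1 libraries, against 68.11, 0 and 0 in the mock libraries, where mock replicate 1 stands apart with 76 reads. The ratio of the group means was 105. The fitted log2 difference depends on the zeros in mock: in limma it was 9.18 (adjusted p = 2.74e-07), 9.85 and 7.61 with a pseudocount of 0.5 and 5, and 11.22 without mock replicate 1, and edgeR on the reads gave 6.57. DESeq2 on the reads gave 6.71 (adjusted p = 0.0241). The authors' deposited table gives 0.09 with an adjusted p of 0.416, and the reason for this gap was not tested. Reads assigned to genes numbered 18544419 to 22198173 in the CDO1 libraries and 17516640 to 22159756 in the mock libraries. All 11 colon epithelium markers had a row, 9 of them rose and none fell in limma, against 11.3% and 12.7% of all genes tested. The summed normalised count of these markers was 191240 to 205220 in the CDO1 libraries against 142920 to 151620 in the mock libraries. Of 6 fibroblast markers, COL1A2, COL3A1, DCN and LUM had no row, and 1 of the 2 tested was called lower. The fibroblast sum was 130 to 151 with CDO1 and 204 to 293 in mock. The leukocyte, endothelium and hepatocyte lists each summed to at most 82.4 in any library. PTPRC and CD3E of the leukocyte list and ALB of the hepatocyte list had no row. Of these lists only 1 marker was called, an endothelium marker that rose. The part that these differences between groups have in the results below was not tested.

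AKR1B1, aldose reductase, fell in the cells with CDO1, and its relative AKR1B10 was at the limit of detection in both groups. AKR1B1 (ENSG00000085662, chromosome 7, 134442350 to 134459284, minus strand, GRCh38) had a normalised count of 195.24, 178.45 and 164.40 in the CDO1 libraries, against 427.48, 455.46 and 471.75 in the mock libraries. The highest CDO1 library lay well under the lowest mock library, so the groups did not overlap. The reads behind these values were 198, 163 and 179 with CDO1 and 477, 467 and 417 in mock. The mean was 179 ± 15.4 with CDO1 and 452 ± 22.4 in mock (SD, n = 3 each), a ratio of 0.397. The log2 fold change on log2(normalised count + 1) was -1.33 with an SE of 0.09, a 95% interval of -1.52 to -1.14 and an adjusted p of 9.42e-10 in limma. It kept its direction and its side of the threshold in all 19 alternatives, with log2 fold changes of -1.39 to -1.23, and was -1.37 without mock replicate 1. Of all genes tested, 2.74% were called lower with a log2 fold change at or below that of AKR1B1. In bulk RNA, fewer cells that express a gene and less of its RNA per cell cannot be told apart.

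AKR1B10 (ENSG00000198074, chromosome 7, 134527592 to 134541408, plus strand) had 2, 6 and 5 reads in the CDO1 libraries and 4, 11 and 4 in the mock libraries. Normalised, these were 1.97, 6.57 and 4.59 with CDO1 and 3.58, 10.73 and 4.53 in mock, and the groups overlapped. Its log2 fold change was -0.41 with a 95% interval of -1.49 to 0.66 (adjusted p = 0.628, limma), so no difference was detectable at this depth. With the AKR1B pair summed before the fit the log2 fold change was -1.31 (adjusted p = 9.12e-10), a sum in which AKR1B1 holds nearly all of the reads.

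The AKR7A genes, neighbours on the minus strand of chromosome 1, went opposite ways, AKR7A2 slightly down and AKR7A3 up. AKR7A2 (ENSG00000053371, 19303965 to 19312146) had a normalised count of 1031.43, 1079.46 and 1047.91 with CDO1 and 1199.98, 1253.25 and 1194.64 in mock. All 3 CDO1 libraries lay under all 3 mock libraries. The mean was 1053 ± 24.4 with CDO1 and 1216 ± 32.4 in mock (SD, n = 3 each), a ratio of 0.866, and the log2 fold change was -0.21 with an SE of 0.06 and a 95% interval of -0.33 to -0.09 (adjusted p = 0.0116, limma). The call was lost without CDO1 replicate 1 (adjusted p = 0.0618), and the log2 fold change was -0.13 (adjusted p = 0.0400) once each library's trend with GC content was removed.

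AKR7A3 (ENSG00000162482, 19282558 to 19289250) had a normalised count of 58.18, 61.31 and 53.27 in the CDO1 libraries, against 38.54, 46.81 and 30.54 in the mock libraries. The groups did not overlap, but these values rest on 59, 56 and 58 reads with CDO1 and 43, 48 and 27 in mock. The mean was 57.6 ± 4.05 with CDO1 and 38.6 ± 8.14 in mock (SD, n = 3 each), a ratio of 1.49, and the log2 fold change was 0.58 with an SE of 0.20 and a 95% interval of 0.17 to 1.00 (adjusted p = 0.0371, limma). Its call was weak: the adjusted p was 0.138 in DESeq2, 0.133 in the authors' deposited table and 0.0508 with no filter on low values. Leaving out 1 library also ended it, with an adjusted p of 0.0970, 0.110 and 0.0609 without CDO1 replicates 1, 2 and 3 and of 0.0758 and 0.139 without mock replicates 1 and 3, while it was 0.0132 without mock replicate 2.

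AKR7L, the near copy of AKR7A3, averaged 32.7 normalised counts with CDO1 and 23.3 in mock, with a log2 fold change of 0.47 that did not pass (adjusted p = 0.157, limma). Summed with AKR7A3, an alternative added after seeing the data, the total averaged 90.3 with CDO1 and 61.9 in mock, with a log2 fold change of 0.55 (adjusted p = 0.0135, limma). The count of AKR7A3 over that of AKR7A2 was 0.0564, 0.0568 and 0.0508 in the CDO1 libraries and 0.0321, 0.0374 and 0.0256 in the mock libraries. With AKR7A3 higher and AKR7A2 lower in every CDO1 library than in any mock library, this ratio could not overlap between the groups. The difference between the fold changes of the pair was not itself tested.

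**Figure D1:**
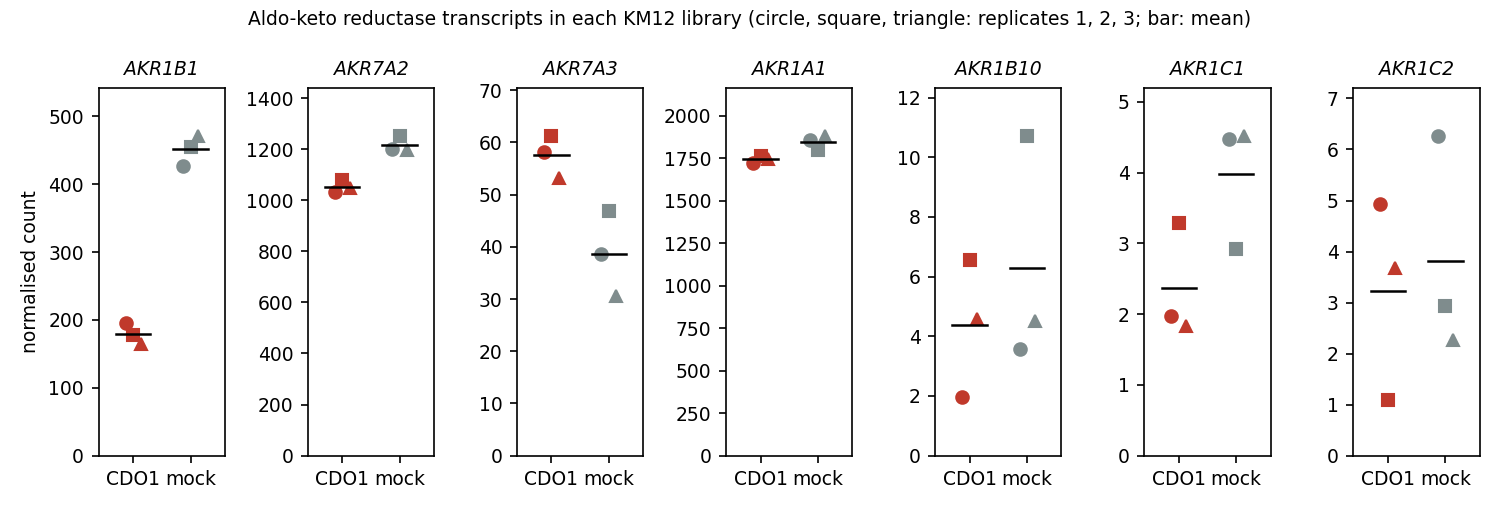
Normalised count of the 7 members with a row, each on its own linear axis from 0, with a point for each library (red CDO1, grey mock, shapes for replicates 1, 2 and 3) and a bar at each group's mean. AKR1B1 lies at 164.40 to 195.24 with CDO1 against 427.48 to 471.75 in mock, while AKR1B10, AKR1C1 and AKR1C2 stay under 11 in every library.

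The start sites of this pair are shown because the fold changes of the genes had opposite signs. The call of AKR7A3 was weak, and the difference between the fold changes was not tested. The RefSeq promoter windows (GRCh38.p14, 250 bases before to 50 after the start) matched 6 of the 7 members in 8 windows. Those of AKR7A2 and AKR7A3 were 49.7% identical over the alignment, and those of AKR1C1 and AKR1C2 93.5%. By the same alignment the windows of AKR1B1 and AKR7A2, on different chromosomes, were 49.2% identical. The AKR7A windows were thus hardly more alike than those of that pair. Capitals mark matches of either strand to TGACNNNGC, the core of the antioxidant response element to which NRF2 binds, and no matches overlap. The AKR7A2 window lies at chr1:19312097-19312396 and the AKR7A3 window at chr1:19288721-19289020, both written on the minus strand.
AKR7A2: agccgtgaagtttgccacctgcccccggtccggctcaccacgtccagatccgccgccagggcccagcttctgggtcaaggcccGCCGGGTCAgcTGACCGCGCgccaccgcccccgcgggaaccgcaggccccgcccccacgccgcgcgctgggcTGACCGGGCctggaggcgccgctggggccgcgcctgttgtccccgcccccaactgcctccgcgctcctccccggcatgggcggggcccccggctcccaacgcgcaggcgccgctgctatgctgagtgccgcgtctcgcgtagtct
AKR7A3: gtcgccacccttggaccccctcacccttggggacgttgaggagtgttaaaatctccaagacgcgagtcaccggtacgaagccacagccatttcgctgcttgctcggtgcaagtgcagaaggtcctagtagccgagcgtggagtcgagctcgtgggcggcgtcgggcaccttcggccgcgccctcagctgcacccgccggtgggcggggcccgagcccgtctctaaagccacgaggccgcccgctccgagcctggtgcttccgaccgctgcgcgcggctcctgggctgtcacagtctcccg
Among the members only the windows of AKR7A2 held the letters, and 13.3% of all 35116 promoter windows held them. The other AKR7A2 window lies at chr1:19312095-19312394, almost the same bases, so both windows hold the same 3 places. A match is a description of the letters and does not show a site in use.

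AKR1A1, the general aldehyde reductase, differed little. AKR1A1 (ENSG00000117448, chromosome 1, 45550543 to 45570049, plus strand) had a normalised count of 1725.62, 1761.52 and 1745.91 with CDO1 and 1856.88, 1801.36 and 1884.72 in mock. The CDO1 libraries lay just under the mock libraries without overlap, at a mean of 1744 ± 18.0 with CDO1 and 1848 ± 42.4 in mock (SD, n = 3 each). The log2 fold change of -0.08 did not pass the threshold (SE 0.05, adjusted p = 0.295, limma), and its 95% interval of -0.19 to 0.03 leaves out a change as large as that of AKR1B1.

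The AKR1C genes, which reduce ketosteroids, were represented by a handful of reads. AKR1C1 (ENSG00000187134, chromosome 10, 4963253 to 4983283, plus strand), which inactivates progesterone, had 2, 3 and 2 reads with CDO1 and 5, 3 and 4 in mock, or 1.97, 3.28 and 1.84 against 4.48, 2.93 and 4.53 normalised. AKR1C2 (ENSG00000151632, chromosome 10, 4987400 to 5018031, minus strand), which inactivates dihydrotestosterone, had 5, 1 and 4 reads with CDO1 and 7, 3 and 2 in mock, or 4.93, 1.09 and 3.67 against 6.27, 2.93 and 2.26 normalised. The groups overlapped for both genes. The log2 fold change was -0.57 for AKR1C1, with a 95% interval of -1.65 to 0.51, and -0.23 for AKR1C2, with one of -1.40 to 0.94 (adjusted p = 0.482 and 0.823, limma). Summed, the pair averaged 5.60 with CDO1 and 7.80 in mock (log2 fold change -0.39, adjusted p = 0.566). A difference was not detectable at this depth.

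**Figure D2:**
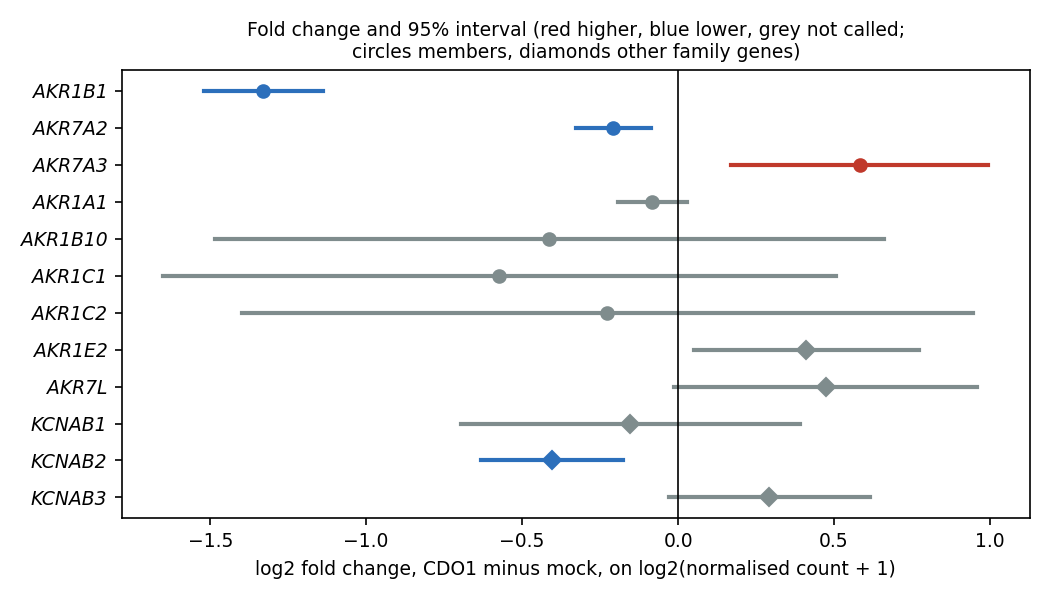
Log2 fold change of CDO1 over mock libraries, from log2(normalised count + 1), with 95% intervals not adjusted for the number of genes, for the 7 members (circles) and 5 other genes of the family (diamonds), red where called higher, blue where called lower and grey where not called. AKR1B1 at -1.33 is the farthest from 0, and the intervals of AKR1B10, AKR1C1 and AKR1C2 span more than 2 log2 units each.

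Of the 7 members tested, 1 rose (AKR7A3) and 2 fell (AKR1B1 and AKR7A2) at an adjusted p of 0.05 in limma. Over all 21775 genes tested 24% were called, 11.3% higher and 12.7% lower, and with so few members 3 of 7 is not read as a property of the family. The groups did not overlap for 4 of the 7 members, AKR1A1 included, against 37.1% of all genes. The median log2 fold change of the members was -0.23, beside -0.0035 over all genes tested. This median is the value of AKR1C2, which had 1 to 7 reads per library and was not called, so it describes no fall of the family. Without mock replicate 1 no member was called higher and 2 were called lower, and without CDO1 replicate 1 none was called higher and 1 lower.

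Per kilobase of merged exon, AKR7A2 and AKR1A1 were the most abundant members and the AKR1C genes the least. AKR7A2 averaged 591 ± 13.7 normalised counts per kilobase with CDO1 and 683 ± 18.2 in mock, and AKR1A1 559 ± 5.77 with CDO1 and 592 ± 13.6 in mock (SD, n = 3 each). AKR1B1 followed at 49.0 ± 4.22 with CDO1 and 123 ± 6.12 in mock, and AKR7A3 at 33.7 ± 2.37 with CDO1 and 22.6 ± 4.76 in mock. The order of the leading pair turned over with the length used, since AKR1A1 had 959 with CDO1 and 1016 in mock per kilobase of its longest coding transcript, and AKR7A2 773 with CDO1 and 893 in mock. AKR1B10 had 2.51 ± 1.32 with CDO1 and 3.60 ± 2.23 in mock, AKR1C2 0.50 ± 0.30 with CDO1 and 0.59 ± 0.33 in mock, and AKR1C1 0.27 ± 0.09 with CDO1 and 0.45 ± 0.10 in mock. The last pair did not differ beyond their spread in either group. The gap between AKR1B10 and the AKR1C genes also depended on the length used. Per kilobase of coding sequence the mock values lay within their spread. They were 6.62 ± 4.09 for AKR1B10, 4.10 ± 0.94 for AKR1C1 and 3.94 ± 2.22 for AKR1C2 (SD, n = 3 each).

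The summed count of the 7 members, not scaled by length, was 3044 ± 41.1 with CDO1 and 3568 ± 28.3 in mock (SD, n = 3 each), a ratio of 0.853. AKR1B1 made up 5.44% to 6.47% of that sum in the CDO1 libraries and 12.1% to 13.1% in the mock libraries. The share of AKR1A1 was 57.0% to 57.8% with CDO1 and 50.4% to 52.5% in mock.

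**Figure D3:**
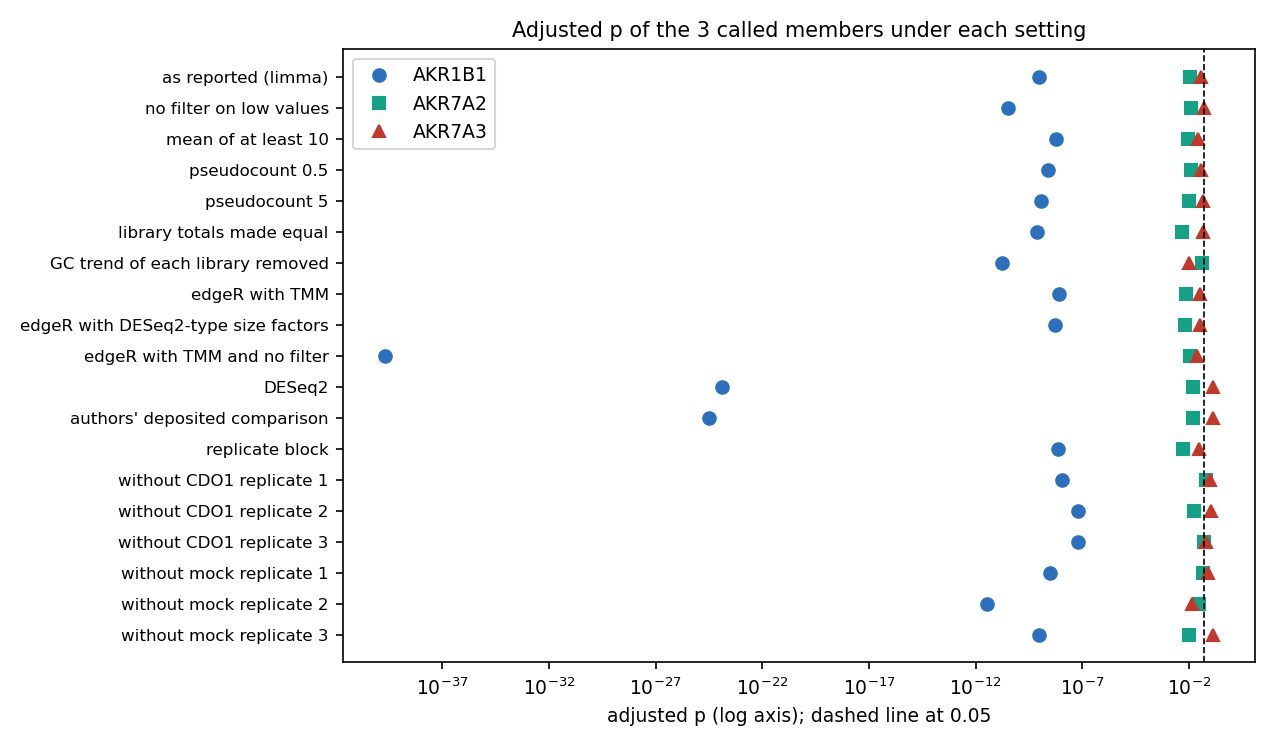
Adjusted p on a log axis for AKR1B1, AKR7A2 and AKR7A3 under the limma fit and each alternative, with a dashed line at 0.05. AKR1B1 stays left of the line throughout, AKR7A2 crosses it without CDO1 replicate 1, and AKR7A3 crosses it under 8 alternatives.

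Outside the members, 6 of 9 other genes of the family had a row and 5 were tested, of which 1 fell and none rose in limma, where 24% of all genes tested were called. The groups did not overlap for 4 of these 5, against 37.1% of all genes tested. KCNAB2, a beta subunit of voltage-gated potassium channels built on the aldo-keto reductase fold, had 194.26, 259.47 and 251.65 normalised counts with CDO1 and 322.62, 328.67 and 278.30 in mock. It fell by 0.40 on the log2 scale (adjusted p = 0.00956), a call that was lost without CDO1 replicate 1 (log2 fold change -0.27, adjusted p = 0.0863). The other beta subunits did not pass: KCNAB1 averaged 21.5 with CDO1 and 24.2 in mock (adjusted p = 0.735), and KCNAB3 78.8 with CDO1 and 63.9 in mock (adjusted p = 0.190). AKR1E2, an anhydrofructose reductase, averaged 66.5 ± 5.35 with CDO1 and 49.9 ± 6.09 in mock (SD, n = 3 each) and did not pass either (log2 fold change 0.41, adjusted p = 0.0947). AKR1D1, which reduces steroid double bonds, had 1 read in the CDO1 group and 1 in the mock group.

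Several members are known targets of NRF2, and the genes around it moved in both directions. Of 27 tested regulators and targets of NRF2, 9 rose and 4 fell in limma, with a median log2 fold change of 0.05, against 11.3% and 12.7% of all genes. Transcripts of the factor itself (NFE2L2, 1432 ± 188 with CDO1 and 1509 ± 123 in mock, SD, n = 3 each, adjusted p = 0.532) and of KEAP1 (3461 ± 260 with CDO1 and 3345 ± 198 in mock, adjusted p = 0.634) did not pass. Among targets, TXNRD1, a thioredoxin reductase, rose by 0.32 (adjusted p = 7.53e-05), HMOX1, heme oxygenase, by 0.31 (adjusted p = 0.00326), ME1, the malic enzyme that yields NADPH, by 0.62 (adjusted p = 1.09e-07) and UGDH, which makes UDP-glucuronate, by 0.40 on the log2 scale (adjusted p = 1.93e-05).

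In the other direction, ABCC2, an export pump for conjugates, fell to 355 ± 27.5 with CDO1 against 767 ± 70.5 in mock (SD, n = 3 each), and PIR, pirin, fell to 208 ± 5.98 with CDO1 against 325 ± 21.1 in mock. Their log2 fold changes were -1.11 (adjusted p = 2.86e-09) and -0.64 (adjusted p = 1.82e-05, limma). NQO1, the quinone reductase often read as the NRF2 marker, averaged 5603 ± 90.9 with CDO1 and 6150 ± 171 in mock (SD, n = 3 each). Its log2 fold change of -0.13 lay at the threshold (adjusted p = 0.050004, not called) and passed in 10 of 18 alternatives. GCLM, a subunit of glutathione synthesis (0.14, adjusted p = 0.160), and SRXN1, sulfiredoxin (-0.08, adjusted p = 0.813), were not called.

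Genes that act beside AKR1B1 did not share one direction. In the polyol and glyoxal list 2 of 7 tested genes rose and 2 fell, against 11.3% and 12.7% of all genes tested. The list's median log2 fold change was -0.04. SORD, the sorbitol dehydrogenase that takes up the product of aldose reductase, fell to 1412 ± 46.1 with CDO1 against 1743 ± 51.8 in mock (log2 fold change -0.30, adjusted p = 0.000337, limma), and TKFC, triokinase, fell by 0.27 (adjusted p = 0.00314). GLO1, the glyoxalase that removes methylglyoxal, rose by 0.25 (adjusted p = 0.00145), as did KHK, fructokinase, by 0.21 (adjusted p = 0.0455). The call of KHK was lost under 8 of 18 alternatives, and 1 gene of the list rose without any CDO1 replicate, mock replicate 1 or mock replicate 3.

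Of 8 genes of the osmotic response, 1 rose and 3 fell in limma, against 11.3% and 12.7% of all genes tested. The list's median log2 fold change was -0.22. NFAT5, the factor that drives AKR1B1 under hypertonic stress, fell to 2736 ± 36.1 with CDO1 against 3104 ± 87.6 in mock (log2 fold change -0.18, adjusted p = 0.0113), and SLC38A2, an amino acid transporter, fell by 0.59 (adjusted p = 2.51e-07). HSPA4L, a chaperone, fell by 0.25 (adjusted p = 0.0127), and SLC6A6, the taurine transporter, rose by 0.24 on the log2 scale (adjusted p = 0.00129). Without mock replicate 1 only 1 gene of this list fell, since the calls of NFAT5 (adjusted p = 0.0763) and HSPA4L (adjusted p = 0.0550) were lost. The call of NFAT5 was also lost without CDO1 replicate 1 (adjusted p = 0.061, limma). That of HSPA4L was also lost without CDO1 replicate 2 or 3 (adjusted p = 0.058 and 0.062, limma).

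Other carbonyl reductases, most of them short-chain dehydrogenases, were split as well. Of 16 tested, 5 rose and 3 fell in limma, against 11.3% and 12.7% of all genes tested. The list's median log2 fold change was -0.07. CBR1, which reduces quinones and prostaglandins, rose to 385 ± 30.9 with CDO1 against 225 ± 27.6 in mock (log2 fold change 0.78, adjusted p = 4.88e-06). DHRS2 fell to 63.0 ± 19.5 with CDO1 against 181 ± 20.4 in mock (-1.55, adjusted p = 1.23e-06), and DCXR, the xylulose reductase, fell by 0.46 (adjusted p = 1.89e-05). The number that rose was 2, 3 and 1 without CDO1 replicates 1, 2 and 3 and 2 without mock replicate 1 or 3, and 5 fell with the GC trend removed.

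Of 16 tested genes of retinaldehyde metabolism, to which AKR1B10 belongs by its substrate, 6 fell and none rose in limma. Over all genes tested 12.7% fell and 11.3% rose, and the list's median log2 fold change was -0.11. CRABP2, which carries retinoic acid in the cell, fell to 1572 ± 78.6 with CDO1, against 3100 ± 58.3 in mock (SD, n = 3 each). Its log2 fold change was -0.98 (adjusted p = 6.07e-11). ALDH1A3, which oxidises retinaldehyde to retinoic acid, fell by 1.09 (adjusted p = 2.90e-09), and DHRS3, which reduces it to retinol and is counted among the carbonyl reductases too, by 0.71 on the log2 scale (adjusted p = 6.45e-06). Without mock replicate 2 or 3, 1 gene of the list was called higher.

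Of 19 tested genes of steroid conversion, the field of the AKR1C enzymes, 8 rose and 1 fell in limma. Over all genes tested 11.3% rose and 12.7% fell, and the list's median log2 fold change was 0.15. HSD3B1, a hydroxysteroid dehydrogenase, rose to 147 ± 16.5 with CDO1 against 49.7 ± 13.5 in mock (log2 fold change 1.58, adjusted p = 1.49e-06), and SULT2B1, a sterol sulfotransferase, rose to 576 ± 7.61 with CDO1 against 364 ± 22.7 in mock (0.66, adjusted p = 1.09e-06). HSD17B8 rose by 0.50 (adjusted p = 6.40e-05) and STS, steroid sulfatase, by 0.48 (adjusted p = 0.000763). Without CDO1 replicate 3, 5 of the list rose, and without mock replicate 2 none fell.

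Of 12 tested genes of prostaglandin metabolism, 2 rose and 2 fell in limma, against 11.3% and 12.7% of all genes tested. The list's median log2 fold change was -0.06. PTGES, a prostaglandin E synthase, rose by 0.42 on the log2 scale (adjusted p = 3.15e-05), and HPGD, which inactivates prostaglandins, by 0.36 (adjusted p = 0.00331). PTGDS, a prostaglandin D synthase (a single read with CDO1; 0, 1.09 and 0 with CDO1 and 2.69, 3.90 and 4.53 in mock), and the receptor PTGER4 (33.8 ± 0.85 with CDO1 and 50.02 ± 5.01 in mock) were called lower, at an adjusted p of 0.0358 and 0.0454. None of the list fell without CDO1 replicate 1 or 3 or without any 1 mock library, nor in DESeq2.

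Aldehydes are also removed by oxidation, and 4 of 16 tested aldehyde oxidation genes rose and 2 fell in limma. Among all genes tested 11.3% rose and 12.7% fell, and the list's median log2 fold change was 0.12. ALDH3A1 rose to 589 ± 26.6 with CDO1 against 385 ± 29.6 in mock (log2 fold change 0.61, adjusted p = 4.80e-06), ALDH2, the mitochondrial enzyme that oxidises acetaldehyde, rose to 2038 ± 100.4 with CDO1 against 1496 ± 19.1 in mock (0.44, adjusted p = 4.08e-06), and ALDH1B1 rose by 0.25 (adjusted p = 0.00196). ALDH3B1 fell by 0.23 (adjusted p = 0.0210). Of this list none fell without CDO1 replicate 1 or mock replicate 2, and 1 fell without CDO1 replicate 2 or 3 or mock replicate 1.

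**Figure D4:**
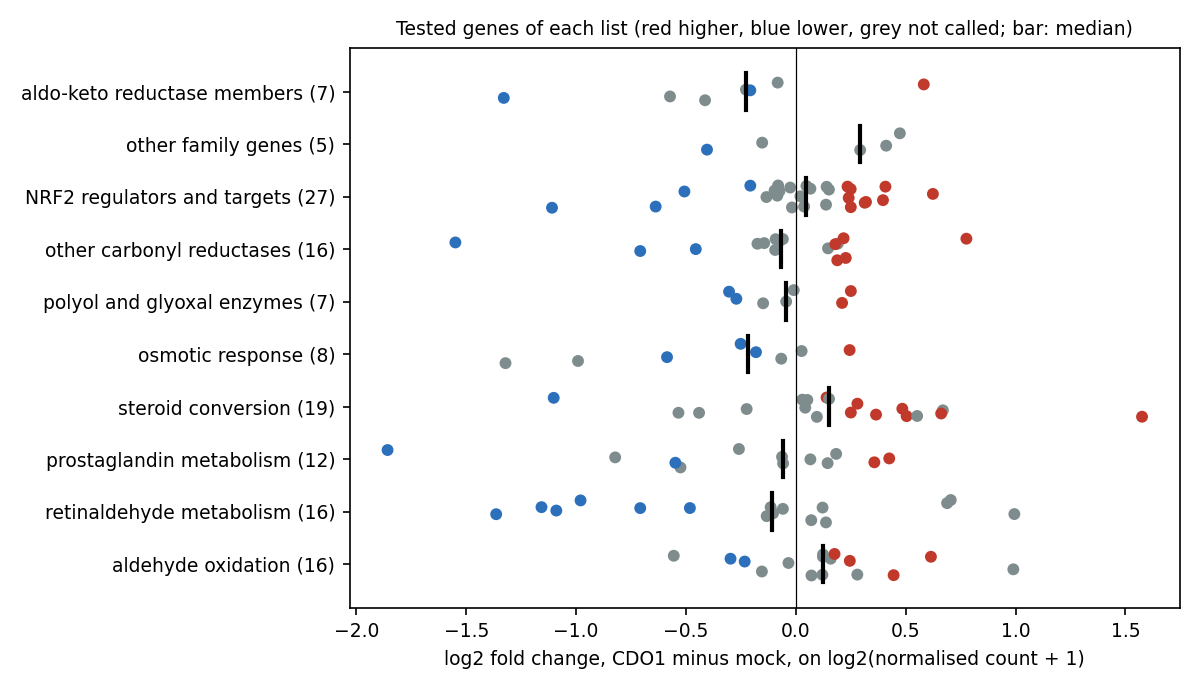
Log2 fold change of CDO1 over mock libraries, from log2(normalised count + 1), with a point for each tested gene of the members and of 9 lists (red called higher, blue called lower, grey not called; vertical jitter carries no value) and a bar at each median. The medians lie between -0.23 for the members and 0.29 for the other genes of the family. The median of the members is the value of AKR1C2, at 1 to 7 reads per library. Calls lie on both sides of 0 in all rows except retinaldehyde metabolism and the other family genes.

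The genes with the pattern most like AKR1B1 over the 6 libraries, among 10940 other genes with a mean of at least 100, were CHD5, a chromatin remodeller, GSDME, gasdermin E, and ITPRIPL1. Their Pearson's r with AKR1B1 on the log2 scale was 0.999, 0.999 and 0.998, and 714 genes reached 0.95. For AKR7A3 they were SREBF2, a factor of sterol synthesis, PRSS8, the protease prostasin, and MYO15B, at 0.995, 0.995 and 0.994, and 142 of 10941 genes reached 0.95. These points share their libraries and the difference between the groups, so the values describe likeness in this comparison only.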

How the data were processed

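Total RNA of KM12 cells was purified on columns (RNeasy) and sequenced from NEBNext Ultra libraries, per the labels, which state no strand setting. The submitters' processing notes name STAR 2.5.1b, DESeq2 1.10.1 and GRCh38. For the read counter and the annotation nothing is stated in these sources. Each signal column, as deposited, holds its library's gene counts divided by a size factor, since all values (100%) are whole reads within 0.01 of a read once scaled. The table's log2 fold change, p-value and adjusted p-value columns were deposited by the authors as their own comparison, per the file headers. An adjusted p of 1 there may stand for a missing value.

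The values are normalised, so limma 3.58.1 (trend) was fitted on log2(normalised count + 1) to the 21775 genes with a mean of at least 1, two-sided, with Benjamini-Hochberg adjustment over all of them and a threshold of 0.05. This scale shrinks the changes of weakly expressed genes, and ratios in the text are of mean normalised counts. Intervals cover 95%. Alternatives on the recovered reads used edgeR 4.0.16 (quasi-likelihood) and DESeq2 1.42.0 in R 4.3.3. The others changed the pseudocount (0.5, 5), the filter, library totals, GC trend (lowess, span 0.3), replicate block, left out each library, added a minimum fold (1 on the log2 scale, either direction), summed paralogs or used the authors' adjusted p. The limma and edgeR fits were tested on simulated data, in which no gene at the low counts of AKR1B10 or the AKR1C pair was changed. DESeq2 was not tested in this way.

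Names came from a reference table (26577 of 27134 identifiers) and positions and transcripts from GENCODE release 29 (26742 identifiers). Coding sequence was compared because no protein table was used here. The members and the 9 lists were chosen with earlier results of these data known, and 155 of 171 list entries matched a row. Genes named were CDO1, the members, other family genes with a mean of at least 1, up to 4 called genes of each list by smallest p, 7 NRF2 genes whatever their p, and 3 genes of most similar pattern; 1 gene that this rule names is not reported here. Reads lack molecular identifiers and so may repeat a molecule.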

Additional observations from a re-analysis of the deposited data

How the results depend on the processing

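Among the 7 members, AKR1B1 and AKR1A1 kept their direction and their side of the threshold under every alternative run, and AKR7A2 under all but the fit without CDO1 replicate 1, before any minimum fold is asked for. The number of members called higher was 0 with no filter, in DESeq2, in the authors' table and with a minimum log2 fold of 1, and 0 to 1 with 1 library left out. The number called lower was 1 with that minimum and 1 to 2 with 1 library left out. Over all genes, 174 were higher and 985 lower with that minimum, where 2467 and 2762 passed without it. No filter adds genes to the adjustment, and the minimum fold takes out AKR7A3 (0.58) and AKR7A2 (-0.21) by its definition. The cause of the other changes was not tested. The summed count over the members had a ratio of 0.838 with equal library totals. Direction reversed with 1 library left out for AKR1C2 (range -0.53 to 0.22, above 0 without CDO1 replicate 2 or, at 0.11, mock replicate 1), NFE2L2 (-0.15 to 0.030, above 0 without CDO1 replicate 2) and SRXN1 (-0.23 to 0.11, above 0 without mock replicate 2), all uncalled. Same-numbered libraries deviated together only weakly (correlations of 0.0777, 0.299 and 0.0862 over 10941 genes). CDO1 replicates 2 and 3 correlated best with the mock library of their own number, and CDO1 replicate 1 with mock replicate 3 (0.189). Whether libraries of the same number shared a batch was not tested. With replicate number as a block 2845 genes were higher and 3073 lower, 1 and 2 of them members. edgeR's filter on low counts and a mean of at least 10 left AKR1B10, AKR1C1 and AKR1C2 untested. Depth limits these 3 genes, at 1 to 11 reads per library.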
